A study of Mus musculus with 9 samples.

Results

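Spleen natural killer (NK) cells that the submitters call immature, from NKDxIL15tg mice, were compared with spleen NK cells that they call mature, from IL15tg mice. The comparison rests on 3 arrays of each kind, 6 of the 9 arrays in the study, and takes in every non-control probe set: 45037 of 45101, of which 27022 were bright enough to be tested. The 3 remaining arrays hold bone marrow NK cells of NKDxIL15tg mice and enter only where they are named. Mice of both spleen groups carry the IL15tg transgene for interleukin 15, the cytokine on which NK cells depend for survival, so it is shared by mature and immature cells. NKD is a transgenic line with few mature NK cells, and its transgene was reported to lie in the Atf2 gene. Since only the immature cells are from NKD mice, genotype and stage of maturity cannot be told apart. The promoter of the IL15 transgene, the surface markers used for the sort, and the age and sex of the mice are not given in the sources used here. The replicates are labelled biological, and nothing in the labels says whether an array pools several mice.

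NK cells are lymphocytes of innate immunity that kill infected and transformed cells and secrete interferon gamma. They arise in the bone marrow from lymphoid progenitors and mature there and in the spleen, where they divide less, gain integrins and inhibitory lectin receptors, and become able to respond to interleukins 12 and 18. Maturation is steered by T-box and zinc finger transcription factors, and it is usually described with a few surface markers; the following account instead goes through the whole array by gene function.

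Array medians lay between 56.6 and 58.8 units of intensity, and the mean rank correlation of an array with its own group was 0.972 to 0.980, against 0.933 to 0.952 with the other group. NKDxIL15tg replicate 2 stood somewhat apart. In it 30 tested probe sets lay more than 2-fold above and 121 more than 2-fold below all 5 other arrays, or 0.559% of those tested. The share was 0.0481% or less elsewhere. For the Gapdh control, the 3' probe set exceeded the 5' one, a sign of RNA length, by a log2 ratio of 1.99 to 3.21 in IL15tg and 1.62 to 1.87 in NKDxIL15tg. For Actb the ranges overlapped, at 1.80 to 2.73 and 1.54 to 2.03. The part of RNA length in the results was not tested. Atf2 itself was measured at 737, 629 and 618 in IL15tg and 708, 641 and 935 in NKDxIL15tg in its brightest probe set. The arrays overlapped there, and the difference of 0.19 ± 0.16 on the log2 scale did not pass. Its 3 other tested probe sets gave 0.42, 0.59 and 0.82, with Benjamini-Hochberg adjusted p = 0.26, 0.0251 and 0.00983 in limma. The last 2 were thus higher in NKDxIL15tg, by less than 2-fold. Where these probes lie relative to the transgene is not known here, so they do not check the genotype.

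The label NK cell was set against lists of marker genes. All 19 NK lineage genes with a probe set were bright enough to be tested, and their summed intensity was 69350 to 71930 in IL15tg and 50690 to 53270 in NKDxIL15tg arrays. Of the 19, 0 were called higher and 6 lower (Klrb1b, Klrc1, Klrd1, Klre1, Klrk1 and Tbx21), and the 3 that follow are among the 13 that were not called. The natural cytotoxicity receptor Ncr1 stood at 1532, 1842 and 1553 in IL15tg and 1021, 1139 and 1075 in NKDxIL15tg. Its log2 change was -0.60 (Benjamini-Hochberg adjusted p = 0.00825 in limma), so it was lower by less than 2-fold. Nkg7, a granule protein of cytotoxic lymphocytes, stood at 5375, 5591 and 5519 in IL15tg and 5275, 4734 and 4487 in NKDxIL15tg. Eomes, which encodes a T-box factor that separates NK cells from their innate relatives, stood at 1787, 2083 and 2051 in IL15tg and 2779.7, 2279 and 2479 in NKDxIL15tg, so these 3 genes were well above the floor in every array. Markers of other cells moved too. Of 12 tested granulocyte markers 7 were called higher in NKDxIL15tg, with sums of 3382 to 8524 against 936.6 to 1263 in IL15tg. S100a8, which encodes a chain of calprotectin, read 137, 83.3 and 222 in IL15tg and 941, 1435 and 3043 in NKDxIL15tg, highest in replicate 3. Of 9 tested erythroid markers 3 were called higher (Car2, Alas2 and Tfrc, the last only just, with adjusted p = 0.0479, and 0.092, 0.128, 0.146, 0.0955 and 0.103 without IL15tg replicates 1, 2 and 3 and NKDxIL15tg replicates 2 and 3), 3 of 12 B cell markers (Cd79a, Cd79b and Ms4a1) were called lower, and 4 of 11 dendritic cell and MHC class II genes (Batf3, H2-Aa, H2-Ab1 and H2-Eb1) were called lower. Batf3, H2-Ab1 and H2-Eb1 did not reach 2-fold without IL15tg replicate 3, at -0.93, -0.99 and -0.95. None of the 13 tested monocyte and macrophage markers was called (sums of 5221 to 5794 against 5776 to 6597), nor any of 6 plasma cell, 4 megakaryocyte and 6 stromal markers, by limma with Benjamini-Hochberg adjustment, and 2, 2, 1 and 1 of them had an unadjusted p under 0.05. Of 11 tested markers of helper-like innate lymphocytes, the cells most like NK cells, 2 were called higher (Inpp4b and Itga1) and 3 lower (Il7r, Ltb and Tmem176b), with sums of 6222 to 7075 in IL15tg and 4465 to 4810 in NKDxIL15tg. Of 6 stem and early progenitor markers 2 were lower (Il7r and Kit), with sums of 1119 to 1162 against 589.3 to 643.1, and Rag1 lay at the floor in all 6 arrays. Kit was also the 1 of 4 mast cell and basophil markers that was called. In bulk samples such as these, fewer cells of a type and less RNA per cell cannot be told apart, and the part of these other cells in the results below was not tested.

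Changes are given as log2 differences, NKDxIL15tg minus IL15tg, with the standard error (SE) of the limma fit and 3 arrays per group, after raising every intensity below 16 to 16. A probe set or gene is called higher or lower where its Benjamini-Hochberg adjusted p in limma lay under 0.05 and its change was at least 2-fold. The p-values measure the spread between these samples, and an exact test of 3 against 3 arrays could not go below 0.1 for a single gene. Of 27022 tested probe sets, 1342 were called, which is 4.97%, with 634 higher (2.35%) and 708 lower (2.62%) in NKDxIL15tg. With each of 12844 genes represented by its brightest probe set, 596 genes (4.64%) were called, 361 higher (2.81%) and 235 lower (1.83%). No array of either group reached the other group in 593 of the 596, nor in 36.7% of all tested genes. Without the limit on size, adjusted p lay under 0.05 for 19.4% of probe sets (9.21% higher and 10.2% lower) and 17.6% of genes. The large changes leaned to the side of higher: 92 genes rose and 55 fell at least 4-fold, 45 rose and 13 fell at least 8-fold, and 18 rose and 4 fell at least 16-fold. On the 75th percentile scaling the split of called probe sets was 669 higher and 640 lower. Without NKDxIL15tg replicate 2, 525 genes were called.

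**Figure D1:**
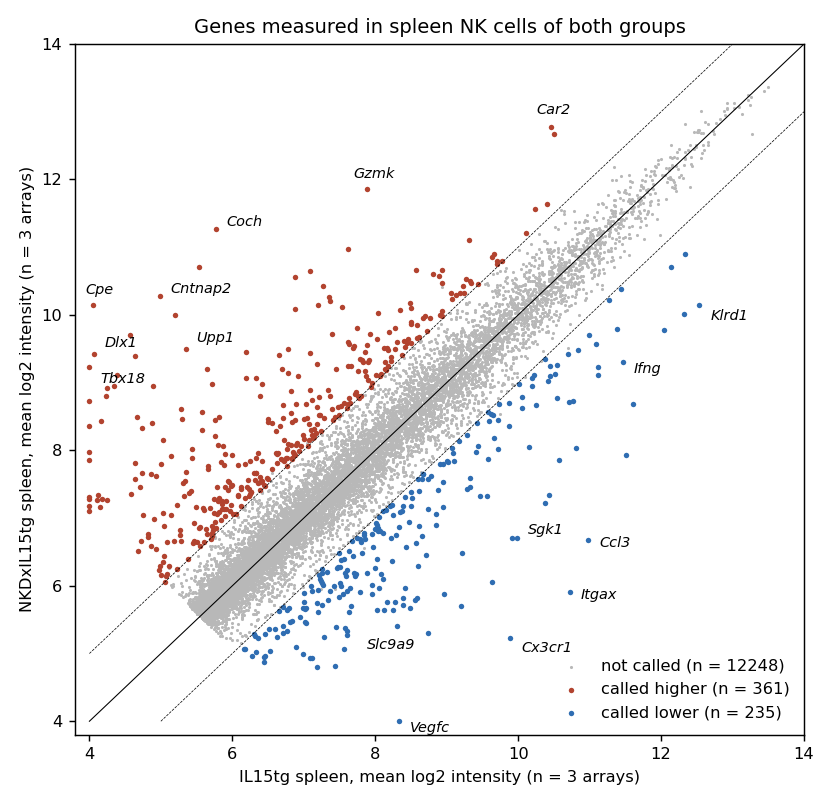
Mean log2 intensity of each tested gene in IL15tg spleen (horizontal) and NKDxIL15tg spleen (vertical), n = 3 arrays each, 1 point per gene at its brightest probe set. Red points are the 361 genes called higher and blue points the 235 called lower in NKDxIL15tg; the solid line is equality and the dashed lines mark 2-fold. Cpe, Dlx1 and Tbx18 lie at the left edge, near the floor in IL15tg, and Vegfc at the bottom edge, at the floor in NKDxIL15tg.

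Cpe, Coch, Dlx1, Cntnap2 and Tbx18 had the largest rises with the floor of 16, but their order rests on the floor, since Cpe, Dlx1 and Tbx18 lay at or near it in IL15tg. With a floor of 64 their rises were 4.15 (Cpe), 5.26 (Coch), 3.42 (Dlx1), 4.27 (Cntnap2) and 3.23 (Tbx18). Cpe, the carboxypeptidase that trims prohormones in secretory granules, read 13.9, 11.9 and 17.6 in IL15tg and 1415, 1090.1 and 947 in NKDxIL15tg. It was near or below the floor in every mature array and high in every immature one, a rise of 6.10 ± 0.15 (adjusted p = 1.25e-07). Coch, which encodes cochlin, a secreted protein of the inner ear and of lymph node, read 58.4, 49.3 and 56.3 in IL15tg and 2535, 2682 and 2182 in NKDxIL15tg, a rise of 5.49 ± 0.12 (adjusted p = 1.25e-07). Npy, the neuropeptide Y precursor, read 33.3, 37.8 and 39 in IL15tg and 1122, 980.4 and 974 in NKDxIL15tg and rose by 4.80 ± 0.12 (adjusted p = 1.25e-07). The 3 immature arrays lay close together for Cpe, Coch and Npy. That no array of one group reached the other follows from the choice of named genes. Rnf180, a membrane-bound ubiquitin ligase, read 5.53, 9.97 and 9.83 in IL15tg and 299.9, 365 and 144 in NKDxIL15tg. All 3 mature arrays lay under the floor, so its rise of 3.97 ± 0.29 depends on where the floor is set. Gzmk, a granzyme of cytotoxic granules, was already measured in mature cells at 247, 239 and 225 and reached 3626, 3874 and 3619 in immature cells, a rise of 3.97 ± 0.10 (adjusted p = 1.36e-07). By contrast the abundant Gzmb did not pass, at 5950.1, 6241 and 5969 in IL15tg and 3706, 7251 and 5011 in NKDxIL15tg, where NKDxIL15tg replicate 2 was the highest and replicate 1 the lowest of all 6 arrays. Only 3 genes were at or under 16 in all mature arrays and at or above 200 in all immature ones: Tbx18, Tnfrsf11b and Gja3. The reverse held for 1 gene, Vegfc.

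The largest falls were in Itgax, Cx3cr1, Vegfc, Ccl3 and Klrc1, described with their families below, and in genes of less known function in NK cells. AI504432, a transcript named by its clone, read 918, 679.7 and 810.5 in IL15tg and 72.1, 45.8 and 88.9 in NKDxIL15tg and fell by 3.58 ± 0.23 (adjusted p = 2.04e-05), and its second probe set fell by 4.39. Padi2, a peptidylarginine deiminase that converts arginine in proteins to citrulline, fell by 2.89 ± 0.13 from 322, 355 and 276 to 40.5, 47.3 and 40.2. Every mature array was at least several times brighter than every immature array for both genes. Ifng, the interferon gamma gene, read 2739, 3168 and 2606 in IL15tg and 504, 586 and 858 in NKDxIL15tg and fell by 2.16 ± 0.19 (adjusted p = 0.00014), but stayed well above the floor in all immature arrays.

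Genes were then sorted by symbol into 82 families in 5 classes. Of 767 tested surface protein genes, 23 were called higher and 33 lower (7.30%), and of 982 signalling genes, 35 higher and 37 lower (7.33%). Of 856 transcription and chromatin genes, 16 were higher and 23 lower (4.56%). Metabolism (1067 genes, 40 higher and 14 lower, 5.06%) and adhesion, matrix and cytoskeleton (594 genes, 34 higher and 12 lower, 7.74%) held more genes called higher than lower. The median change was 0.11 in metabolism and between -0.07 and 0.01 in the other classes, against 0.02 over all genes. Genes outside every class were called in 3.85% of 8678 cases. The plot of called shares by family shows each direction beside the share over all genes. Each family count below is to be set beside 2.81% of all genes called higher and 1.83% called lower.

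**Figure D2:**
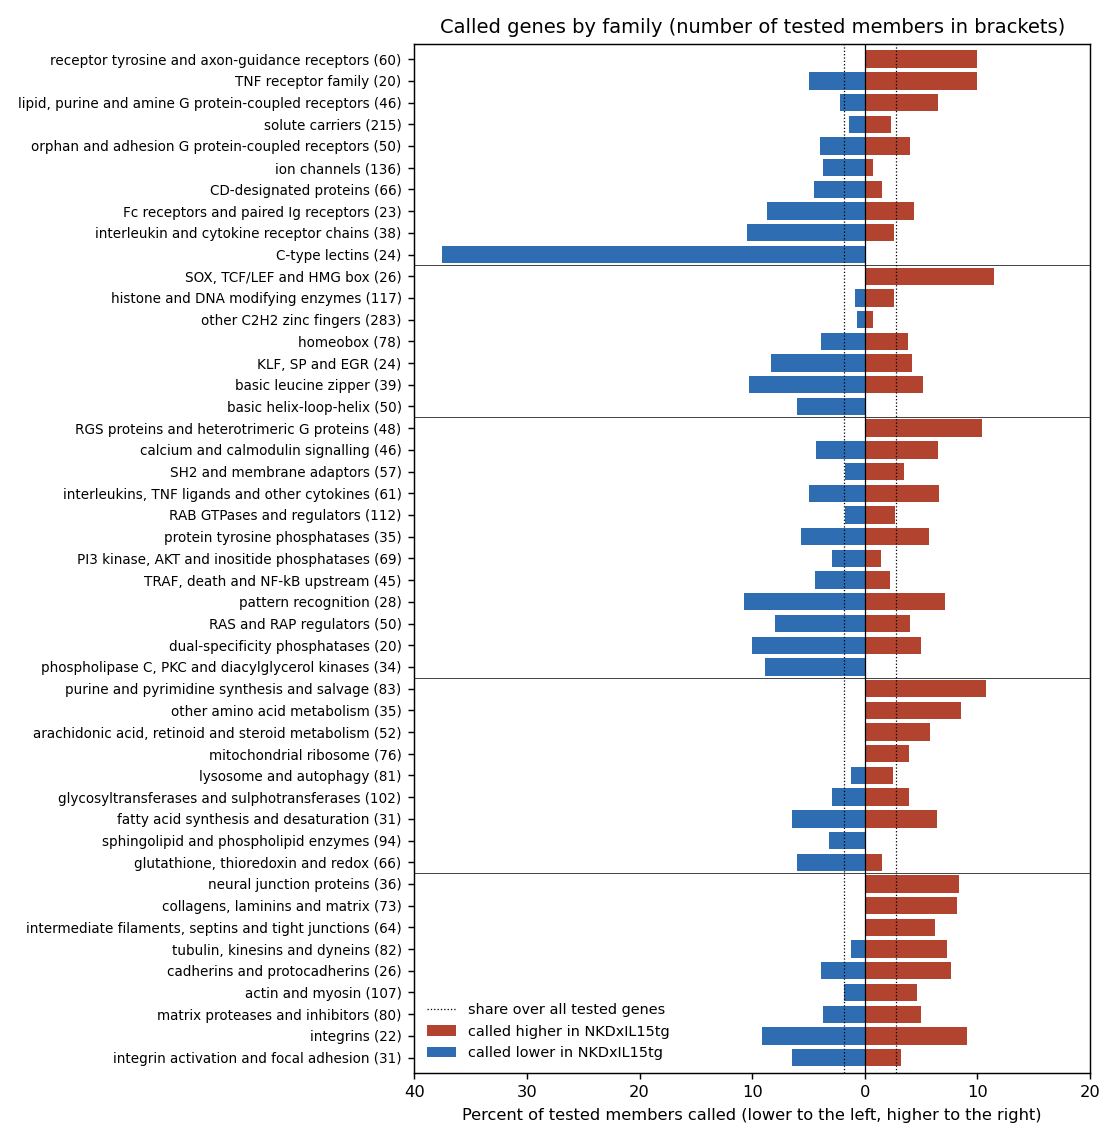
Percent of tested members called higher (red, right) and lower (blue, left) in NKDxIL15tg spleen, for families with at least 20 tested genes and 3 called genes, except 1 that is not reported here; tested members are in brackets and horizontal lines part the classes. Dotted lines mark the shares over all 12844 genes, 2.81% higher and 1.83% lower. C-type lectins reach furthest to the left (37.5%), and nucleotide, RGS and receptor tyrosine families have no member called lower.

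Among surface proteins, the C-type lectins were the family with the largest called share: of 24 tested, 9 were called lower and 0 higher, and 8 or 9 were called lower when any array was left out. These receptors read MHC class I and stress ligands on target cells. Klrd1, which encodes CD94, read 6223, 5807 and 5792 in IL15tg and 1405, 607 and 1682 in NKDxIL15tg and fell by 2.40 ± 0.32 (adjusted p = 0.00137). Its partner Klrc1 (NKG2A) fell by 3.58 ± 0.34 (adjusted p = 0.000228), and Klrk1 (NKG2D), which binds stress ligands, fell by 3.09 ± 0.28 (adjusted p = 0.00017). Klre1 read 4189.6, 4268 and 4193 in IL15tg and 1086, 484 and 1288 in NKDxIL15tg. In each of these genes NKDxIL15tg replicate 2, the array that stood apart, was the lowest of the immature arrays. Klrb1a, a neighbour of the NK1.1 gene and named here after its values were seen, read 1556, 1733 and 1771 in IL15tg and 394, 362 and 510.1 in NKDxIL15tg. Of 23 Fc receptors and paired Ig receptors 2 were lower and 1 higher. The higher one, Pilrb1, a paired activating receptor, rose by 1.10 ± 0.32 (adjusted p = 0.0445) and lost its call when any array but NKDxIL15tg replicate 1 was left out (adjusted p = 0.0736 to 0.13, or a change of 0.70 without NKDxIL15tg replicate 2). With a floor of 64 its adjusted p was 0.105. Fcgr3, the low-affinity receptor through which NK cells kill antibody-coated cells, read 1671, 1353 and 1457 in IL15tg and 508, 260.0 and 641 in NKDxIL15tg and fell by 1.76 ± 0.29 (adjusted p = 0.00368), and Fcgr2b, an inhibitory receptor better known from B cells, read 364, 336 and 310.3 in IL15tg and 155, 135 and 143 in NKDxIL15tg, with 3 other probe sets at -2.88, -2.56 and -1.20. Fcgr2b fell beside 3 B cell markers, and the part of B cells in its fall was not tested.

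Receptors for soluble signals moved in both directions. Of 38 interleukin and cytokine receptor chains, 4 were called lower and 1 higher. Il18r1 read 3399.7, 3032 and 2976 in IL15tg and 561, 192 and 654 in NKDxIL15tg and fell by 2.92 ± 0.39 (adjusted p = 0.00132), its partner chain Il18rap fell by 1.59 ± 0.16 (adjusted p = 0.000321), the interleukin 7 receptor gene Il7r fell by 3.08 ± 0.20 (adjusted p = 2.5e-05) and Kit, which encodes a growth factor receptor of progenitors and mast cells, fell by 2.19 ± 0.13 (adjusted p = 1.64e-05). The chain called higher was Ghr, the growth hormone receptor, at 16.6, 18.3 and 17.2 in IL15tg and 205, 122 and 173 in NKDxIL15tg. The mature arrays sat near the floor. The call of Ghr (a rise of 3.23 ± 0.18) held in each alternative that tested it, although the filter at the 60th percentile and the fits without an NKDxIL15tg array did not test it.

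Of 60 receptor tyrosine kinases and axon-guidance receptors, 6 (10%) were called higher and 0 lower, against 2.81% of all genes called higher. Epha3, an ephrin receptor that guides growing axons and migrating cells, read 10.1, 12.5 and 26.1 in IL15tg and 312, 448 and 640.2 in NKDxIL15tg. All immature arrays were far above all mature arrays, and a second probe set rose by 4.92. Efnb1, which encodes an ephrin ligand, read 74.3, 67.9 and 75.3 in IL15tg and 295, 179.9 and 209 in NKDxIL15tg, and Nrp2, the neuropilin that serves as a co-receptor of semaphorins and of VEGF-C, read 60.5, 50.1 and 61.5 in IL15tg and 185, 256 and 246 in NKDxIL15tg, with dimmer probe sets at 1.52 and 0.42. Ret, the receptor kinase for glial neurotrophic factors, rose by 1.60 ± 0.11 (adjusted p = 2.41e-05). The 2 others were Sema6d, a semaphorin, and Igf1r, the insulin-like growth factor receptor, at changes of 1.59 and 1.26, and Igf1r lost its call without IL15tg replicate 1 (adjusted p = 0.0589), IL15tg replicate 2 (0.0521) or NKDxIL15tg replicate 1 (a change of 0.90). A dimmer probe set of Sema6d gave -0.13. Both were named after their values were seen, to complete the count.

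Among G protein-coupled receptors, those for lipids, purines and amines had 3 of 46 called higher and 1 lower. P2ry14, which senses UDP-glucose, read 155, 157 and 181 in IL15tg and 1370.2, 1213 and 1132 in NKDxIL15tg and rose by 2.91 ± 0.12 (adjusted p = 2.17e-06). Ptger2, a receptor for prostaglandin E that raises cyclic AMP, read 164, 164 and 157 in IL15tg and 454, 462 and 505 in NKDxIL15tg and rose by 1.55 ± 0.10 (adjusted p = 2.54e-05). S1pr5, the sphingosine phosphate receptor by which NK cells leave the marrow and lymph nodes, went the other way, at 2313, 2416 and 1981 in IL15tg and 811, 324 and 641 in NKDxIL15tg, and fell by 2.01 ± 0.29 (adjusted p = 0.002). The chemokine receptors Cx3cr1 and Ccr6 were called lower of 13 tested. Ccr6 read 148, 235 and 263 in IL15tg and 67.6, 68.3 and 84.3 in NKDxIL15tg. Like the B cell markers Cd79a, Cd79b and Ms4a1, it increased from IL15tg replicate 1 to 3, and the part of B cells in its fall was not tested. Cx3cr1 read 1051, 903 and 904 in IL15tg and 32.9, 60.4 and 26.8 in NKDxIL15tg, so the immature arrays lay on either side of the filter limit of 46.8. The apelin receptor Aplnr rose by 4.28 ± 0.33 from 12.1, 11 and 22.2 to 554, 197 and 379.6, while its dimmer probe set gave 0.89. Adgrl2, an adhesion receptor of the latrophilin group, rose by 2.05 ± 0.12 in one probe set and 3.34 in the other, and Gpr137b, a lysosomal membrane protein, fell by 1.86 ± 0.13.

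The remaining surface families were mixed. In the TNF receptor family 2 of 20 were called higher, or 1 without IL15tg replicate 1, 2 or 3 or NKDxIL15tg replicate 2, and 1 lower, or 2 without NKDxIL15tg replicate 2 and 0 with a floor of 64 or the 60th percentile filter. Tnfrsf11b, which encodes osteoprotegerin, the soluble decoy receptor that blocks bone resorption, read 3.83, 5.43 and 14 in IL15tg and 366, 448 and 459.6 in NKDxIL15tg. The mature arrays were all under the floor and the immature ones close together. Cd28, the costimulatory receptor of T cells, read 387, 411 and 342 in IL15tg and 1776, 1395 and 1741 in NKDxIL15tg and rose by 2.10 ± 0.13 (adjusted p = 1.91e-05) with a second probe set at 2.47, while the other 10 tested T cell markers were not called. Cd52, a small glycoprotein of lymphocytes, fell by 1.42 ± 0.21 from 4267, 4491 and 4734 to 1854, 2203 and 1149.

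Among channels and carriers of small molecules, 4.41% of ion channels and 3.72% of solute carriers were called, near the 4.64% of all genes. Ion channels were called lower in 3.68%, against 1.83% of all genes. Of 136 ion channels 5 were lower (3 with a floor of 64) and 1 higher (0 without NKDxIL15tg replicate 1, 3 without replicate 3). Kcnj8, the pore subunit of an ATP-sensitive potassium channel, read 1380.0, 1364 and 1256 in IL15tg and 199, 100.2 and 165 in NKDxIL15tg and fell by 3.16 ± 0.22 (adjusted p = 3.56e-05). Clic4, an intracellular chloride channel protein, fell by 1.70 ± 0.14, with 2 dimmer probe sets at -1.91 and -0.40. Of 215 solute carriers 5 were called higher, or 3 without IL15tg replicate 2, and 3 lower. Slc9a9, an endosomal sodium-proton exchanger, read 416, 469 and 402 in IL15tg and 50, 32.8 and 37.7 in NKDxIL15tg and fell by 3.44 ± 0.16 (adjusted p = 3.37e-06). Slc41a2, a magnesium carrier, fell by 2.50 ± 0.25. Slc16a10, which carries aromatic amino acids, rose by 2.06 ± 0.12, Slc2a8, an intracellular glucose carrier, by 1.84 ± 0.13 and Slc25a4, the adenine nucleotide exchanger of mitochondria, by 1.17 ± 0.14. None of 53 ATP-driven transporters was called by limma, while 10 had an unadjusted p under 0.05 and 8 an adjusted p under 0.05.

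**Figure D3:**
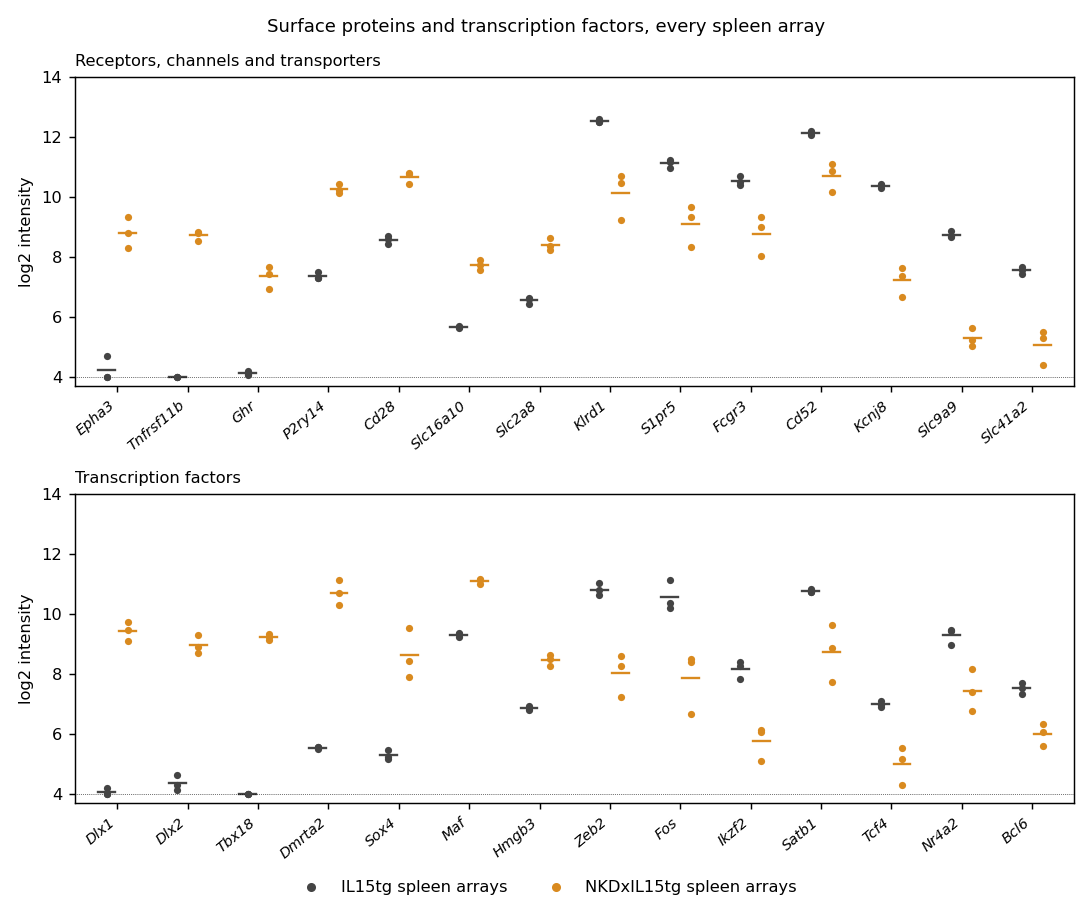
Log2 intensity in every spleen array for 14 surface protein genes (top) and 14 transcription factor genes (bottom); points are arrays, grey for IL15tg and orange for NKDxIL15tg, bars are means of 3 and the dotted line is the floor of 16. The genes shown were picked among called genes, of which 593 of 596 have groups without overlap, against 36.7% of all tested genes. NKDxIL15tg replicate 2 is the low orange point for Klrd1 and Satb1.

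Transcription factors moved in both directions. Of 78 homeobox genes 3 were called higher and 3 lower (3.85% each, against 2.81% and 1.83% of all genes). Dlx1, a homeobox factor of forebrain interneurons and craniofacial bone, read 15.9, 14.6 and 18.1 in IL15tg and 847, 546 and 699 in NKDxIL15tg and rose by 5.36 ± 0.16 (adjusted p = 4.08e-07). Its chromosomal neighbour Dlx2 read 17.4, 19.5 and 24.9 in IL15tg and 626, 414 and 471 in NKDxIL15tg and rose by 4.61 ± 0.18 (adjusted p = 1.91e-06), and the antisense transcript between them, Dlx1as, was called higher too, though these arrays were not used to tell overlapping transcripts apart. Dlx1 and Dlx2 lie on chromosome 2, as does Atf2, in which the NKD transgene was reported to lie. The part of the transgene's site in their rises was not tested. Lmo4, a cofactor that binds LIM homeobox proteins, rose by 1.22 ± 0.12. Those that fell were Zeb2, Satb1 and Hhex. Zeb2, a repressor that NK cells need for their last steps of maturation, read 2087, 1765 and 1572 in IL15tg and 389, 151 and 306 in NKDxIL15tg and fell by 2.78 ± 0.30 (adjusted p = 0.000482), with its 4 other probe sets between -2.76 and -2.30. Satb1, an organiser of chromatin loops in lymphocytes, fell by 2.04 ± 0.39, with 4 others between -2.12 and -1.02, and its lowest array was NKDxIL15tg replicate 2. Hhex, a factor of early lymphoid and liver development, fell by 1.14 ± 0.13.

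In the T-box family 1 of 8 was called higher and 1 lower. Tbx18, a factor of the heart's pacemaker region and of the ureter, read 7.77, 4.98 and 10.9 in IL15tg and 602, 562 and 637 in NKDxIL15tg. It was under the floor in all mature arrays and its 3 immature arrays lay close together. Tbx21, which encodes T-bet, the factor of interferon gamma production, read 2227, 2099 and 1781 in IL15tg and 1029, 701 and 791 in NKDxIL15tg and fell by 1.29 ± 0.16 (adjusted p = 0.000952), still well above the filter in every immature array. Dmrta2, a DM-domain factor of the developing cortex that lies outside these families, read 44.6, 46.8 and 47.7 in IL15tg and 2256, 1246 and 1645 in NKDxIL15tg and rose by 5.17 ± 0.19 (adjusted p = 1.3e-06).

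The HMG box family had 3 of 26 called higher and 0 lower. Sox4, a factor of lymphoid progenitors, read 37.3, 44 and 35.8 in IL15tg and 736, 241 and 342 in NKDxIL15tg in its brightest probe set and rose by 3.34 ± 0.34, while 3 dimmer ones gave 4.55, 1.93 and 0.38. Replicate 1 was its highest immature array and replicate 2 its lowest. Hmgb3, a chromatin protein of blood progenitors, read 112, 117 and 123 in IL15tg and 308, 392 and 357 in NKDxIL15tg and rose by 1.58 ± 0.12 (adjusted p = 5.82e-05). Tox, a factor NK cells need early in development, read 398, 388 and 365 in IL15tg and 897, 718 and 830.0 in NKDxIL15tg and rose by 1.08 ± 0.12 (adjusted p = 0.000482).

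Basic leucine zipper factors had 4 of 39 called lower and 2 higher, and the lower count was 2 without IL15tg replicate 1, IL15tg replicate 2 or NKDxIL15tg replicate 1, and 1 with a floor of 64, while the higher count was 1 with 16 added in place of the floor. Fos, the immediate-early factor, read 1315, 2264 and 1180.2 in IL15tg and 101, 337 and 365 in NKDxIL15tg and fell by 2.72 ± 0.46 (adjusted p = 0.00441). Its spread was wide in both groups. Maf, a factor of cytokine genes in T cells, read 642, 663 and 603 in IL15tg and 2247, 2065 and 2313 in NKDxIL15tg and rose by 1.80 ± 0.11 (adjusted p = 1.27e-05); its other probe sets gave 2.25, 1.94, 0.66 and 0.30. Crem, which encodes activators and repressors that bind the cyclic AMP response element, rose by 1.11 ± 0.13.

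Most of the called genes named here from other families went down. Ikzf2, which encodes Helios, an Ikaros zinc finger factor, fell by 2.40 ± 0.27. Klf4, a brake on lymphocyte division, read 158, 222 and 186 in IL15tg and 59.1, 45.1 and 76.9 in NKDxIL15tg and fell by 1.67 ± 0.20 (adjusted p = 0.000821). Bcl6, a repressor best known from germinal centres, fell by 1.52 ± 0.19, and Foxd2, a forkhead factor, fell by 1.39 ± 0.11. Nr4a2, an orphan nuclear receptor induced by antigen receptor signals, fell by 1.86 ± 0.31 in its brightest probe set, with others at -2.57, -2.05, -0.47, 0.06 and 0.13. Tcf4, an E protein of plasmacytoid dendritic cells and B cells, read 125, 119 and 136 in IL15tg and 35.5, 19.4 and 46.4 in NKDxIL15tg and fell by 2.00 ± 0.27 (adjusted p = 0.00148), with others from -2.12 to -0.03, but with a floor of 64 its change was -0.99. It fell beside the B cell and MHC class II genes named above, whose part in its fall was not tested. The higher side held Tfdp1, the partner of E2F factors at the entry into S phase, with 220.3, 219 and 209 in IL15tg and 499, 711 and 535 in NKDxIL15tg, a rise of 1.41 ± 0.14 (adjusted p = 0.000326). None of 20 ETS factors, a family with several regulators of NK cell development, was called by limma, while 7 had an unadjusted and 4 an adjusted p under 0.05, and 1 was called lower with no filter. Of 283 other C2H2 zinc finger genes 2 were higher and 2 lower, or 1.41%, against 4.64% of all genes. The higher count was 4 without IL15tg replicate 3 and 1 without IL15tg replicate 2 or NKDxIL15tg replicate 1 or 2 or with 16 added in place of the floor, and the lower count was 1 without IL15tg replicate 2.

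Secreted signals came first in size among signalling genes. Vegfc, the growth factor of lymphatic vessels, read 306, 359 and 309 in IL15tg and 8.35, 6.97 and 10.7 in NKDxIL15tg. It was moderately bright in every mature array and under the floor in every immature one, and fell by 4.34 ± 0.11, a size that the floor sets. Ccl3 read 2018, 2337 and 1749 in IL15tg and 74.5, 95.6 and 151 in NKDxIL15tg and fell by 4.30 ± 0.24 (adjusted p = 9.71e-06), and its neighbour Ccl4 fell by 3.50 ± 0.15 (adjusted p = 2.52e-06); both are chemokines that draw monocytes and T cells. Ltb, which encodes lymphotoxin beta, fell by 3.20 ± 0.21. Rises were seen in Il2, the T cell growth factor, at 35.7, 34.8 and 50.9 in IL15tg and 215, 152 and 186 in NKDxIL15tg, in Il18 at 46.6, 52.7 and 52.9 in IL15tg and 193, 233 and 233 in NKDxIL15tg and in Fgf13, an intracellular relative of the fibroblast growth factors, at 208, 207 and 208 in IL15tg and 892, 620.3 and 736 in NKDxIL15tg. The 3 rises had adjusted p-values of 9.32e-05, 1.13e-05 and 5.82e-05 in limma. Fgf5 rose by 3.16 ± 0.34, but not with a floor of 64 (adjusted p = 0.0799), and a dimmer probe set gave 0.15.

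Downstream of G protein-coupled receptors, 5 of 48 RGS and heterotrimeric G protein genes were called higher (10.4%, against 2.81% of all genes) and 0 lower. The higher count was 5 or 6 when any array was left out. Gpsm2, which ties G protein alpha subunits to the spindle, read 48.4, 33.1 and 49.6 in IL15tg and 120.4, 241 and 167 in NKDxIL15tg and rose by 1.98 ± 0.25 (adjusted p = 0.00106). Rgs18, a regulator that speeds the shut-off of G proteins in blood cells, read 114, 129 and 143 in IL15tg and 252, 497 and 354 in NKDxIL15tg and rose by 1.46 ± 0.22 (adjusted p = 0.00268), and Grk5, a kinase that desensitises receptors, rose by 1.11 ± 0.14. Gnaq, the alpha subunit that activates phospholipase C, rose by 1.23 ± 0.15 in its brightest probe set and gave -0.05 to 0.82 in its 4 others. Gnb5, a beta subunit that partners RGS proteins, rose by 1.09 ± 0.10 and was named after its values were seen.

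Of 46 calcium and calmodulin genes 3 were called higher and 2 lower (10.9%, against 4.64% of all genes). Cyclic nucleotide signalling had 1 of 45 higher and 1 lower (4.44%). Gucy1b1, a subunit of the nitric oxide receptor that makes cyclic GMP, read 9.88, 9.86 and 10.9 in IL15tg and 424, 112 and 258 in NKDxIL15tg. All mature arrays were under the floor and the immature ones spread widely, with replicate 2 the lowest; a dimmer probe set gave 0.49, and the fits without NKDxIL15tg replicate 1 or 3 did not test the bright one. Camk1d, a calmodulin-dependent kinase, read 419, 355 and 375 in IL15tg and 51.4, 43.8 and 80.9 in NKDxIL15tg and fell by 2.75 ± 0.21 (adjusted p = 5.45e-05). Rcan1, an inhibitor of the phosphatase calcineurin, read 80, 82.8 and 84 in IL15tg and 249.8, 147 and 165 in NKDxIL15tg and rose by 1.15 ± 0.18 (adjusted p = 0.0034), but gave 0.92 without NKDxIL15tg replicate 1. The S100 genes S100a8 and S100a9, counted here by name and known from neutrophils, rose with the granulocyte markers. Anxa8, of the calcium family, fell by 2.03 ± 0.12, with a dimmer probe set at -0.40. Pde8a, of the cyclic nucleotide family, fell by 1.36 ± 0.13, but its change was -0.84 with a floor of 64.

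In the diacylglycerol branch, of 34 phospholipase C, protein kinase C and diacylglycerol kinase genes, 3 were lower and 0 higher. Prkcb, the protein kinase C beta isoform, read 1305, 1169 and 954 in IL15tg and 284, 248 and 261 in NKDxIL15tg and fell by 2.10 ± 0.14 (adjusted p = 2.22e-05), with 2 other probe sets at -2.42 and -2.17. Dgkh, a kinase that removes diacylglycerol, fell by 2.45 ± 0.16, with others at -1.68 and 0.08. Rasgrp2, an exchange factor by which calcium and diacylglycerol activate RAP1, fell by 1.14 ± 0.11, with others at -1.17, -1.13 and -0.29. Downstream, 4 of 50 RAS and RAP regulators were lower and 2 higher, or 1 higher with a floor of 64, with 16 added or with probe sets averaged. The small GTPase Rap2a, which acts on the cytoskeleton, read 663, 606 and 520.5 in IL15tg and 127, 59.2 and 94.6 in NKDxIL15tg and fell by 2.73 ± 0.25 (adjusted p = 0.000161). Rap2b fell by 1.53 ± 0.16 (another probe set gave -0.44), Rasa3, a GTPase-activating protein of RAS and RAP1, fell by 1.27 ± 0.15, and Rgl1, an exchange factor for RAL, rose by 2.20 ± 0.21 from 59, 69.7 and 47.9 to 268, 348 and 204.

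Kinases, phosphatases and adaptors changed one by one. Sgk1, a kinase related to AKT that responds to steroid hormones and osmotic stress, read 1140.4, 1098 and 829 in IL15tg and 104, 111 and 99.4 in NKDxIL15tg and fell by 3.27 ± 0.14 (adjusted p = 2.42e-06). Its 3 immature arrays lay close together. Inpp4b, a phosphatase of PI3 kinase products, read 56.6, 41.8 and 75.1 in IL15tg and 279, 375 and 442 in NKDxIL15tg and rose by 2.67 ± 0.23 (adjusted p = 0.000123). Yes1, a Src-family kinase, fell by 2.02 ± 0.21. Dual-specificity phosphatases, which switch off MAP kinases, split: Dusp6, specific for ERK, read 192, 204 and 195 in IL15tg and 751, 921 and 677 in NKDxIL15tg and rose by 1.98 ± 0.13 (adjusted p = 2.55e-05), Dusp2 fell by 1.44 ± 0.17, and the immediate-early gene Dusp1 read 1319, 1843 and 1352 in IL15tg and 450.3, 896 and 574 in NKDxIL15tg and fell by 1.28 ± 0.24 (adjusted p = 0.00762), though not in the fit of all 9 arrays (adjusted p = 0.0511). Sh2d1a, the adaptor SAP of SLAM-family receptors, rose by 1.11 ± 0.13. Malt1, the paracaspase on the way to NF-kB, fell by 1.37 ± 0.18, with dimmer probe sets at -1.41 and -0.35. Notch4, a Notch receptor known from vessels, read 93.1, 114 and 96.6 in IL15tg and 639.5, 712 and 698 in NKDxIL15tg and rose by 2.76 ± 0.12 (adjusted p = 2.41e-06).

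Among regulators of small GTPases, RAB genes were called in 4.46%, near the 4.64% of all genes. Rab11fip2, an effector of recycling endosomes, read 203, 193 and 193 in IL15tg and 2385, 1636 and 2063 in NKDxIL15tg and rose by 3.35 ± 0.14 (adjusted p = 2.42e-06), with a second probe set at 3.22. Prex1, a RAC exchange factor driven by G proteins, fell by 1.36 ± 0.14. Pattern recognition genes had 2 of 28 higher, or 1 with a floor of 64, and 3 lower, or 1 without IL15tg replicate 3 or with a floor of 64. Ifi213, an interferon-inducible sensor of the AIM2-like group, read 346, 295 and 373 in IL15tg and 54.9, 30.6 and 86.5 in NKDxIL15tg and fell by 2.68 ± 0.31 (adjusted p = 0.000722); it lies beside close relatives, whose signal on its probes cannot be told apart from its own. Tlr2, a receptor for bacterial lipoproteins, rose by 1.28 ± 0.13 beside granulocyte markers.

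**Figure D4:**
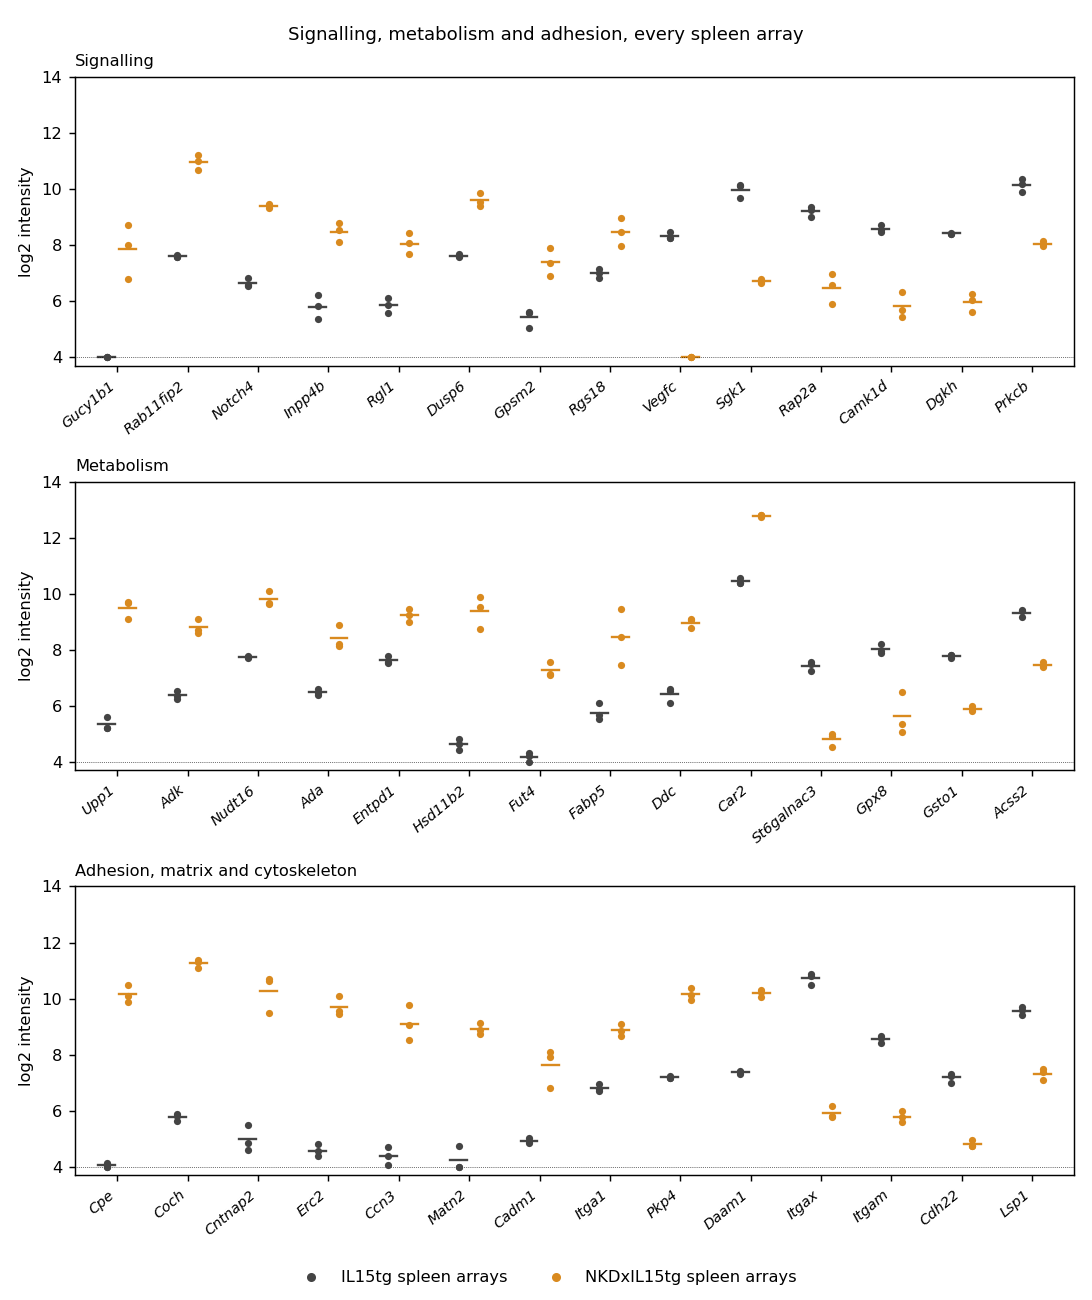
Log2 intensity in every spleen array for 14 genes each of signalling (top), metabolism (middle) and adhesion, matrix and cytoskeleton (bottom); points are arrays, grey for IL15tg and orange for NKDxIL15tg, bars are means of 3 and the dotted line is the floor of 16. The genes shown were picked among called genes, of which 593 of 596 have groups without overlap, against 36.7% of all tested genes. Gucy1b1 lies at the floor in all IL15tg arrays and Vegfc in all NKDxIL15tg arrays.

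Among metabolic families, nucleotide genes held the most calls. Of 83 genes of purine and pyrimidine synthesis and salvage, 9 were called higher and 0 lower (10.8%, against 2.81% of all genes), 67 of the 83 lay above 0 and the median change was 0.33, against 6860 of 12844 and 0.02 over all genes. The count was 6 to 8 when 1 array was left out, and 1 gene was called lower without NKDxIL15tg replicate 2 or 3 and with the replicate block. Upp1, which splits uridine for salvage or carbon, read 37.4, 37.4 and 48.2 in IL15tg and 816, 846 and 550.3 in NKDxIL15tg and rose by 4.15 ± 0.18 (adjusted p = 2.62e-06). Adk, the kinase that turns adenosine into AMP, read 80.9, 76.7 and 93.4 in IL15tg and 416, 390.4 and 547 in NKDxIL15tg and rose by 2.42 ± 0.15 (adjusted p = 1.75e-05), with other probe sets at 1.94 and -0.09. Nudt16, which hydrolyses inosine nucleotides, read 209, 222 and 215 in IL15tg and 1098, 799 and 815 in NKDxIL15tg and rose by 2.06 ± 0.14 (adjusted p = 2.88e-05). For these genes immature arrays were all above mature arrays, as the choice of named genes required. Gda, guanine deaminase, varied most, at 36.3, 33.8 and 42.1 in IL15tg and 53.6, 226 and 255 in NKDxIL15tg, and without IL15tg replicate 1, 2 or 3 or NKDxIL15tg replicate 2 or 3 its adjusted p was 0.086, 0.0863, 0.0677, 0.0534 and 0.0563. The other 5 were named after their values were seen. Ada, adenosine deaminase, read 84.9, 89.3 and 97.5 in IL15tg and 284, 471 and 296 in NKDxIL15tg and rose by 1.91 ± 0.19 (adjusted p = 0.000264). Entpd1, the surface enzyme CD39 that degrades extracellular ATP, rose by 1.61 ± 0.14 from 218, 186 and 189 to 705, 605 and 517. Rrm2, the small subunit of ribonucleotide reductase, rose by 1.18 ± 0.21 (others 1.38 and 0.59), Dut, which removes dUTP, by 1.14 ± 0.14, and Atic, of the last steps of purine synthesis, by 1.00 ± 0.12, at the 2-fold limit, so that its call was lost without IL15tg replicate 1 (a change of 0.96), NKDxIL15tg replicate 1 (a change of 0.98) or replicate 2 (a change of 0.94), and its dimmer probe set gave 0.14. Serine, one-carbon and methionine genes, which feed nucleotide synthesis, had a median of 0.32, with 24 of 31 above 0 and 12 of 31 at adjusted p under 0.05 (38.7%, against 17.6% of all genes), and 1 was called, Psat1, of serine synthesis (2 genes without NKDxIL15tg replicate 1 and 3 without replicate 3). It read 574, 508 and 517 in IL15tg and 1140.0, 1559.6 and 1171 in NKDxIL15tg.

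The promoters of Adk and Nudt16 are shown because both are among the larger rises of nucleotide genes and carry the CCAAT box, a motif found in more of the genes called higher than of all genes. The sequences are the 250 bases before the RefSeq start in GRCm38.p6, in the direction of the gene, and CCAAT or its reverse complement ATTGG is in capitals. Adk lies at chr14:21052324-21052573 on the plus strand and Nudt16 at chr9:105131806-105132055 on the minus strand.
Adk: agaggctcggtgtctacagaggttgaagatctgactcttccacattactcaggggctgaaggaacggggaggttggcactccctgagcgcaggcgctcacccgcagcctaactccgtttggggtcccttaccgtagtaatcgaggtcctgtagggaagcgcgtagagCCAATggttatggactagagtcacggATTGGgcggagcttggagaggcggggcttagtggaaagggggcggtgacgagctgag
Nudt16: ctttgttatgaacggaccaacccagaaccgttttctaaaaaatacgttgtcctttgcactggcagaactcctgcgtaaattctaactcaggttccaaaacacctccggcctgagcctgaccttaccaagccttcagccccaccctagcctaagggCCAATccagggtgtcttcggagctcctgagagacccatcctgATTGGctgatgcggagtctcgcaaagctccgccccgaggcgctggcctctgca
Each holds the motif once on each strand, at 83 and 57 bases before the start in Adk and 95 and 53 in Nudt16. Over the 300 base promoter windows of 10280 tested genes that have one, 42.3% held CCAAT on either strand, against 50.9% of 289 genes called higher and 39.6% of 187 called lower. GC boxes (GGGCGG) were held by 64.3%, 68.5% and 57.8%, E-boxes (CAGGTG) by 21.9%, 20.1% and 19.8%, and T-box sites (TCACACCT) by 1.21%, 0.692% and 0.535%, all on either strand. A match describes the letters of the window and not a site in use.

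Carbohydrate and mitochondrial families lay above 0 by small amounts, and so did other metabolic families. The median was 0.20 in 32 genes of glucose transport and glycolysis, 0.17 in 77 genes of oxidative phosphorylation and 0.20 in 76 mitochondrial ribosome genes, of which 2, 1 and 3 were called higher and 0 lower. The glycolysis count was 1 without IL15tg replicate 3 or with a floor of 64, and the oxidative phosphorylation count 0 with probe sets averaged. Suclg2, of the citric acid cycle, rose by 1.40 ± 0.13 (adjusted p = 0.000219), from 239, 267 and 216 to 649, 702 and 551, and Mpc1, of the mitochondrial pyruvate carrier, by 1.21 ± 0.17. Pygl, a glycogen phosphorylase, rose by 1.33 ± 0.14, and Mrpl3, a mitochondrial ribosome protein, by 1.24 ± 0.11. None of 45 cytoplasmic ribosome genes was called by limma, while 12 had an unadjusted and 9 an adjusted p under 0.05. Their median was 0.17 too, with 34 of 45 above 0. The median was 0.20 in 47 carbonic anhydrase, aldehyde and aldo-keto genes.

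Lipid genes moved one by one. Fabp5, a fatty acid carrier, read 46.3, 50.7 and 68.3 in IL15tg and 174, 711 and 348 in NKDxIL15tg and rose by 2.69 ± 0.42 (adjusted p = 0.00308), with replicate 2 the highest array. Acss2, which makes acetyl-CoA from acetate, read 665, 690.1 and 573 in IL15tg and 191, 166 and 174 in NKDxIL15tg and fell by 1.86 ± 0.12 (adjusted p = 2.02e-05), as did its 2 other probe sets (-2.31 and -1.92). Hsd11b2, which inactivates glucocorticoids, read 21.8, 25.2 and 28.1 in IL15tg and 958, 735 and 429 in NKDxIL15tg and rose by 4.75 ± 0.26 (adjusted p = 8.82e-06). All immature arrays were far above all mature arrays. Alox5ap, which hands arachidonic acid to 5-lipoxygenase, rose by 2.27 ± 0.30 from 45.3, 55.9 and 68.7 to 159, 366 and 336; it is abundant in granulocytes, whose markers rose as well. Ugcg, which makes glucosylceramide, fell by 1.40 ± 0.16, with others at -1.37, -0.63 and -0.43, and Pld1, a phospholipase, fell by 1.26 ± 0.11.

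Ddc, the decarboxylase that makes dopamine and serotonin, read 68.8, 96.5 and 93.6 in IL15tg and 531, 546 and 441 in NKDxIL15tg and rose by 2.56 ± 0.16 (adjusted p = 1.6e-05). It was 1 of 3 higher of 35 genes of other amino acid metabolism, or of 1 with a floor of 64 or with 16 added. Car2, a carbonic anhydrase and 1 of the erythroid markers, read 1509.8, 1357 and 1356 in IL15tg and 7121, 7150.3 and 6778 in NKDxIL15tg and rose by 2.32 ± 0.10 (adjusted p = 2.66e-06); it made up most of the erythroid sum, and the part of erythroid cells in its rise was not tested. Redox genes had 4 of 66 lower, or 2 without NKDxIL15tg replicate 2, and 1 higher, or 2 without IL15tg replicate 2 and 3 without NKDxIL15tg replicate 1. Gpx8, a glutathione peroxidase of the endoplasmic reticulum, fell by 2.38 ± 0.32 from 249, 237 and 299 to 41.4, 90.2 and 33.3, and Gsto1, a glutathione transferase, fell by 1.89 ± 0.11 (a dimmer probe set gave -0.86). Of 102 enzymes that build surface sugars 4 were higher (3.92%) and 3 lower (2.94%), near the 2.81% and 1.83% of all genes. Fut4, which makes the Lewis X epitope, read 14.3, 19.9 and 18.4 in IL15tg and 139.9, 192 and 139 in NKDxIL15tg and rose by 3.10 ± 0.15 (adjusted p = 5.09e-06), Mgat5, which branches N-glycans, rose by 1.47 ± 0.14, and St6galnac3, a sialyltransferase, read 189, 151 and 182 in IL15tg and 32, 23.2 and 30.4 in NKDxIL15tg and fell by 2.61 ± 0.15 (adjusted p = 1.24e-05), while a dimmer probe set gave -0.01.

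Adhesion genes moved in both directions. Of 22 integrin chains 2 were called lower and 2 higher, or 1 higher without IL15tg replicate 2 or NKDxIL15tg replicate 2. Itgax (CD11c) read 1795, 1867 and 1448 in IL15tg and 72, 54.9 and 55.4 in NKDxIL15tg and fell by 4.81 ± 0.15 (adjusted p = 4.58e-07), and its chromosomal neighbour Itgam (CD11b) read 338, 409.8 and 386 in IL15tg and 54.1, 48.8 and 64.2 in NKDxIL15tg and fell by 2.77 ± 0.14 (adjusted p = 4.5e-06). Itga1, the collagen-binding chain CD49a, read 105, 110.1 and 125 in IL15tg and 464, 543 and 408 in NKDxIL15tg and rose by 2.05 ± 0.13 (adjusted p = 2.38e-05). These genes were named among called genes without overlap, so that no array of one group reached the other follows from the choice. Apbb1ip, the RAP1 effector RIAM that activates integrins, fell by 1.32 ± 0.25. Gpc1, a cell surface heparan sulphate carrier, read 248, 268 and 284 in IL15tg and 70.6, 57.6 and 60.6 in NKDxIL15tg and fell by 2.09 ± 0.12 (adjusted p = 1.12e-05).

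Of 73 collagens, laminins and other matrix genes 6 were called higher and 0 lower (8.22% higher, against 2.81% of all genes). Ccn3, a matricellular protein, read 16.8, 20.9 and 26.2 in IL15tg and 364, 529.8 and 871 in NKDxIL15tg and rose by 4.72 ± 0.29 (adjusted p = 1.66e-05). Matn2, a matrilin that joins matrix filaments, read 10.5, 11.6 and 26.6 in IL15tg and 475, 429.9 and 556 in NKDxIL15tg and rose by 4.68 ± 0.20 (adjusted p = 2.42e-06). Coch belongs here too. Spock2, a proteoglycan, rose by 2.20 ± 0.23, though a dimmer probe set gave 0.37. Among matrix proteases and inhibitors 4 of 80 were higher (5.0%) and 3 lower (3.75%), against 2.81% and 1.83% of all genes. Reck, a membrane-bound inhibitor of metalloproteases, read 402, 377 and 313 in IL15tg and 1110.2, 799 and 903 in NKDxIL15tg and rose by 1.36 ± 0.15 (adjusted p = 0.000565), and Serpinb9b, a relative of the granzyme B inhibitor, read 451, 351 and 363 in IL15tg and 75, 95.4 and 66.7 in NKDxIL15tg and fell by 2.30 ± 0.16 (adjusted p = 3.27e-05).

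Neural junction proteins had 3 of 36 called higher and 0 lower, or 1 lower without NKDxIL15tg replicate 1 and 5 higher with no filter. Cntnap2, a neurexin-like protein that clusters potassium channels on axons, read 24.3, 28.7 and 45.2 in IL15tg and 1597, 721 and 1649 in NKDxIL15tg and rose by 5.29 ± 0.33 (adjusted p = 1.85e-05), with a second probe set at 4.24. Erc2, a scaffold of the presynaptic active zone, read 23.3, 20.9 and 27.7 in IL15tg and 1086, 759 and 693 in NKDxIL15tg and rose by 5.12 ± 0.18 (adjusted p = 9.41e-07). Flrt2, a guidance and adhesion protein, rose by 2.36 ± 0.33 and by 3.88 in its second probe set. In Cntnap2 and Flrt2 replicate 2 was the lowest immature array. Cadm1, an immunoglobulin-fold adhesion molecule of synapses and mast cells, read 28.9, 32.7 and 30.2 in IL15tg and 276, 112 and 243 in NKDxIL15tg and rose by 2.68 ± 0.29 (adjusted p = 0.000469). Pkp4, an armadillo protein of junctions, read 145, 153 and 142 in IL15tg and 1336, 982 and 1113 in NKDxIL15tg and rose by 2.96 ± 0.13 (adjusted p = 2.65e-06). Cdh22, a cadherin, fell by 2.38 ± 0.13 from 128, 151 and 160.3 to 30.7, 27 and 26.4. Gja3, a gap junction connexin of the lens, read 13.3, 14.3 and 15.6 in IL15tg and 463, 258 and 298 in NKDxIL15tg, under the floor in every mature array, and Dst, a linker of filaments and microtubules, rose by 3.17 ± 0.20.

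Within the cell, 5 of 107 actin and myosin genes were higher (4.67%) and 2 lower (1.87%), or 2 higher with probe sets averaged. Over all genes the shares were 2.81% and 1.83%. Daam1, a formin that acts downstream of WNT, read 171, 158 and 165 in IL15tg and 1204, 1052 and 1279 in NKDxIL15tg and rose by 2.84 ± 0.11 (adjusted p = 1.91e-06). Lsp1, an actin-binding protein of leukocytes, read 763, 836 and 681 in IL15tg and 181, 136 and 168 in NKDxIL15tg and fell by 2.24 ± 0.14 (adjusted p = 1.84e-05), and Capg, a filament capping protein, fell by 1.70 ± 0.33. Of 82 tubulin, kinesin and dynein genes 6 were higher (7.32%, against 2.81% of all genes), or 3 with probe sets averaged. The lower count was 1 (1.22%), or 2 without IL15tg replicate 2 or NKDxIL15tg replicate 1. Kif11, the motor that pushes spindle poles apart, read 65.5, 49 and 73.8 in IL15tg and 107, 232 and 254 in NKDxIL15tg and rose by 1.58 ± 0.31 (adjusted p = 0.00832), with others at 1.38 and 0.92. Dnah8, an axonemal dynein heavy chain of sperm tails, rose by 1.99 ± 0.12. Tubb5, a common tubulin named after its values were seen, read 729.9, 867 and 800.3 in IL15tg and 1763, 1906 and 1892 in NKDxIL15tg, while Tubb2a, another beta tubulin, read 365, 418 and 390.2 in IL15tg and 112, 135 and 109 in NKDxIL15tg, so that the 2 beta tubulins moved in opposite directions.

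The cyclic AMP response element, TGACGTCA, is the site bound by ATF2 and its relatives. It was found in the promoter windows of 3.33% of tested genes, of 1.73% of genes called higher (5 of 289) and of 3.21% of genes called lower (6 of 187). Rcan1 and Dusp1, a called gene in each direction, are shown, again as the 250 bases before the RefSeq start with the element in capitals. Rcan1 lies at chr16:92400079-92400328 on the minus strand and Dusp1 at chr17:26508473-26508722 on the minus strand.
Rcan1: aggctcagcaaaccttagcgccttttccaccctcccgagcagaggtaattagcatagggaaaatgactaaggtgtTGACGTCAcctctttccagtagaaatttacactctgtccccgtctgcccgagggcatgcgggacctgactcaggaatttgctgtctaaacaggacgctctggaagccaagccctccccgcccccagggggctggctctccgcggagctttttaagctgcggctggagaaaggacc
Dusp1: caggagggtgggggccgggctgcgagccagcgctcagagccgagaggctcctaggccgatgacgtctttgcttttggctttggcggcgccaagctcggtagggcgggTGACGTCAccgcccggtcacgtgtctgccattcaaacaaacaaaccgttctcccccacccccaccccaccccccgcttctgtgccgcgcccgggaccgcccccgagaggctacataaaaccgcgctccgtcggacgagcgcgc
The element begins 175 bases before the start in Rcan1 and 143 in Dusp1. The other called genes with it were Ell2, Ift57, Ncaph and Zwint on the higher side and Dvl1, H2-Aa, Ppp1r15a, Retreg1 and Tubb2a on the lower side, named because they complete the count.

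Some called genes are neighbours, which here means next to each other in the chromosomal order of tested genes, so untested genes may lie between them. Of 12800 pairs of neighbouring tested genes, 53 had both members called and 39 of these in the same direction. Over all tested genes 4.64% were called, 2.81% higher and 1.83% lower. Whether 53 and 39 exceed what these shares alone would give was not tested. The longest run of called genes in 1 direction held 4 genes of the MHC class II region, all lower. Dlx1, Dlx1as and Dlx2, on chromosome 2 like Atf2, formed a run of 3. So did Klrc1, Klra5 and Klra8, and Klre1, Klrd1 and Klrk1, which were lower. Tnfrsf11b came next to Ccn3 in the order of tested genes, both higher. The lectin genes of the Ly49 group (Klra5, Klra8) are related members of a family, and their probes may share signal.

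Other probe sets of the same gene check the probes behind a call. They were read from the same RNA on the same arrays, so they are not independent replicates of the difference between groups. Of 596 called genes 266 had at least 1 more tested probe set. In 140 of them another probe set was called in the same direction, in 232 all others had the same sign, and in 0 was another called in the opposite direction. Over all 9229 tested dimmer probe sets of named genes, 2.1% were called higher and 2.1% lower. Probe sets under the brightness filter are not counted here, and such dim probe sets of a strongly changed gene can read near the background in both groups.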

How the data were processed

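Total RNA, 150 ng per sample, of sorted NK cells was amplified from the 3' end in a 2-cycle protocol and hybridised to Affymetrix arrays, per the labels. The authors' deposited table holds an intensity on a linear scale for each probe set, and the sources used here do not say how probes were summarised or arrays scaled. Medians of the 6 spleen arrays differed by 0.05 on the log2 scale, so the intensities were used as deposited, floored at 16 and transformed to log2. Testing was limited to probe sets whose mean reached the 40th percentile, which is 46.8 in intensity. It used limma (version 3.58.1, under R 4.3.3), with lmFit and eBayes, 2-sided, on the 6 arrays without covariates, and Benjamini-Hochberg adjustment over 27022 probe sets. The median SE was 0.13, and the number of arrays limits the precision. Data were also simulated with the spread of this comparison and 27022 probe sets, with 50 changes of each size added to brighter probe sets only. Of changes of 1.5, 2, 4 and 8-fold, 16%, 68%, 96% and 100% reached an adjusted p under 0.05 in limma. The 2-fold limit of a call was not applied there, so these shares are not those of calls. Platform annotation gave 1 symbol to 34945 probe sets, several to 932 and none to 9160. Promoters and gene order come from RefSeq (GRCm38.p6), and the build behind the array design was not looked up.

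Arrays with the same replicate number deviated together (correlations of 0.16, 0.15 and 0.12 for numbers 1, 2 and 3), a pairing read from the labels' numbers, and a fit with the replicate number as a block was an alternative. The remaining alternatives were fits of 9 and of 8 arrays, quantile and 75th percentile scaling, other floors and filters, other eBayes settings, the mean of a gene's probe sets and leaving out each array. The comparison, families, marker lists and motifs were chosen with earlier results of these data known. Genes named are the 20 largest rises and falls without overlap, up to 4 rises, 4 falls and the 2 brightest of each family, and markers; exceptions are stated.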

Additional observations from a re-analysis of the deposited data

How the results depend on the processing

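All 1342 called probe sets kept their sign under every alternative that tested them. Calls were picked for large changes in these same arrays, so the kept signs were close to fixed by that choice and are no separate support. The count of calls was 994 with a floor of 64, 1031 with 16 added in place of the floor, 1102 with the filter at the 60th percentile, 1464 with no filter, 1249 with all 9 arrays (1223 shared), 1328 without bone marrow replicate 3, and 1293 to 1324 with array weights, trend and robust eBayes and both rescalings. With the replicate block it was 1355, with 1340 shared; among the genes named in the text the block ended the call of Tfrc only (adjusted p = 0.0515) and changed no other call. Leaving out 1 array gave 1105 to 1596 called probe sets and 525 to 623 called genes. The count at adjusted p under 0.05 with no limit on size moved most, from 5248 to between 2768 and 5382, where fewer arrays enter the fit: it was 2768, 2806 and 3312 without IL15tg replicates 1, 2 and 3. Of 267 called genes looked at singly, 174 were called under every alternative that tested them, and most of the others lay near 2-fold. With a gene's probe sets averaged, Gnaq (0.64), Sema6d (0.73), Atic (0.57), Rap2b (-0.99), Rasgrp2 (-0.93) and Ugcg (-0.96) did not reach 2-fold, nor did Crem (0.98) and Gnb5 (0.99) with 16 added. For genes under the floor in all arrays of one group (Tbx18, Tnfrsf11b, Gja3, Gucy1b1, Rnf180 and Vegfc) the floor sets the size of the change, and for those under it in some IL15tg arrays (Cpe, Dlx1, Matn2, Epha3, Aplnr, Fgf5 and Fut4) it sets part of it. In simulation 68% of 2-fold changes in brighter probe sets reached an adjusted p under 0.05 in limma, without the 2-fold limit of a call. Genes that were not called may therefore still differ.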

Other observations

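Probe sets without a gene symbol, which no family above includes, leaned to lower values in NKDxIL15tg. Of 4330 tested, 269 were called lower (6.21%) and 65 higher (1.5%), with a median change of -0.13, whereas the brightest probe sets of named genes were called lower in 1.83% and higher in 2.81%. The dimmer probe sets of named genes were called equally often in both directions, 194 and 194. The share of calls on the higher side among probe sets without a symbol was 19.5%, and 13.3% to 29.7% over the alternatives. The number called lower was 156 without IL15tg replicate 1, 161 without NKDxIL15tg replicate 2 and 425 without NKDxIL15tg replicate 3.

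Further runs of called genes were seen in the order of tested genes. Fignl1, Ddc and Grb10 formed a run of 3 higher genes, though Grb10 was not called with a floor of 64 (a change of 0.45, adjusted p = 0.242), and Slc16a1, Tafa3 and Ppm1j another, in which Slc16a1 lost its call without IL15tg replicate 2 or 3 (adjusted p = 0.0605 and 0.0648) and with a floor of 64 (0.0895). The MHC class II run comprised H2-Ob, H2-Ab1, H2-Aa and H2-Eb1. Its genes were highest in IL15tg replicate 3 (H2-Aa at 1107, 1719 and 2390 in IL15tg replicates 1 to 3), the calls of H2-Ab1 and H2-Eb1 were lost without that array, at -0.99 and -0.95, and H2-Ab1 also lost its call without IL15tg replicate 2 (adjusted p = 0.0568).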
